A study of Arabidopsis thaliana with 21 samples.

Results

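COR15A (AT2G42540) and COR15B (AT2G42530) are neighbouring genes of Arabidopsis thaliana that were chosen here by name, as the 2 genes of the COR15 pair. Each was measured by 1 probe set among the 13286 genes that could be named on the array. COR15 proteins are small, highly hydrophilic proteins that are imported into the chloroplast stroma, are largely unfolded in solution and protect chloroplast membranes when cells lose water during freezing. Their genes are classical targets of the CBF transcription factors, which accumulate in the cold and bind the C-repeat element of cold-regulated (COR) promoters. CAMTA proteins are calmodulin-binding transcription activators, known as positive regulators of CBF genes in the cold and as repressors of immune genes in warm-grown plants. No nucleotide or protein sequence is printed, because none was used here.

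The 21 arrays form 7 groups of 3. At 22 °C these were the triple mutant camta1/2/3, the double mutants camta2/3, camta1/3 and camta1/2, and the wild type (WT), and at 4 °C camta1/2/3 and WT after 24 h in the cold. All plants were of the Col-0 background, 3 weeks old, grown in soil under a 12 h photoperiod, and the entire aerial part was sampled. The labels call the replicates biological, and they give neither the mutant alleles nor the number of plants behind an array, so the p-values measure the spread between these samples. In whole shoots, fewer cells that make a transcript and less of it per cell cannot be told apart.

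The mutated CAMTA genes had no probe set that could be named, so the arrays offer no check of the genotypes. The 3 measured leaf markers averaged 10.92 to 12.62 (log2) on the 21 arrays. Of the 3 measured root markers, PYK10 had group means between 8.83 in camta1/2/3 at 22 °C and 6.4 in WT at 4 °C, AT4G30170 from 2.28 to 2.69, and EXPA7 stood at 2.17, the lowest value of the table, in every group. Array medians lay between 4.86 and 5.01.

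Over all 7 groups, warm-grown plants differed in COR15A by genotype, and at 4 °C camta1/2/3 and WT did not differ past the test in either gene. COR15A passed the test in 7 of 14 comparisons between groups and COR15B in 3 of 14 (limma, Benjamini-Hochberg adjusted p under 0.05). Between genotypes at 22 °C the counts were 4 of 10 for COR15A and 1 of 10 for COR15B. The plot of levels by array shows all the values.

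**Figure D1:**
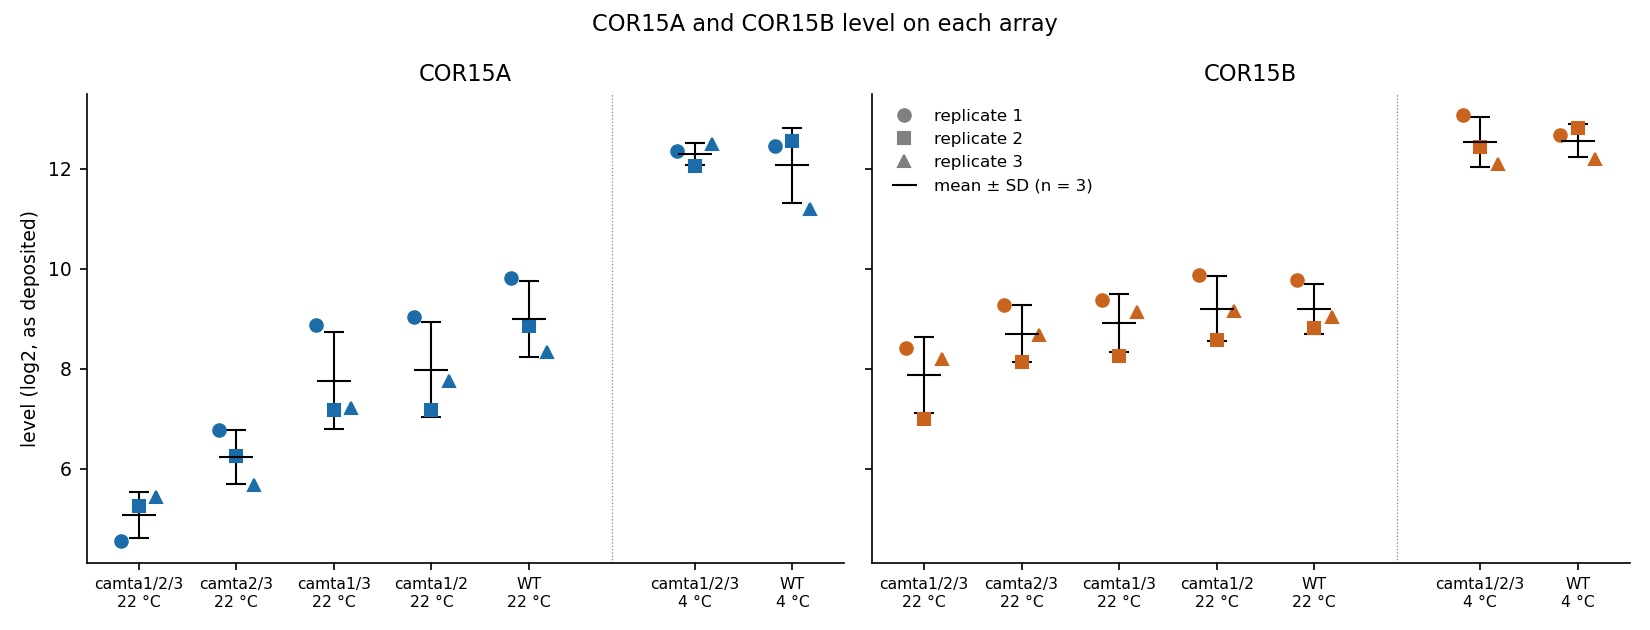
Level of COR15A (left) and COR15B (right) on each array (log2, as deposited), by genotype at 22 °C and at 4 °C, with the mean and SD of 3 arrays; marker shapes give the replicate number. COR15A is lowest in warm camta1/2/3 (4.55 to 5.43) and the 4 °C groups lie above all 22 °C groups for both genes.

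The first question was how the level of COR15A in warm-grown plants depended on the CAMTA genes. COR15A stood at 4.55, 5.25 and 5.43 (log2) in camta1/2/3 at 22 °C, against 9.81, 8.85 and 8.33 in WT at 22 °C. Every triple-mutant array was lower than every WT array. The means were 5.08 ± 0.46 in camta1/2/3 and 9.0 ± 0.75 in WT (SD, n = 3 each), a 15.1-fold lower level in the mutant, with a log2 difference of −3.92 ± 0.56 (SE; 95% interval −5.12 to −2.72; limma adjusted p = 0.000119). In this comparison 23.5% of the 22746 probe sets were called, and COR15A had the ninth lowest difference among them. The mutant level lay near the array medians (4.86 to 5.01), and how far it lay above background was not tested.

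The double mutants lay between these levels. COR15A stood at 6.77, 6.26 and 5.68 in camta2/3, below every WT array, and averaged 6.24 ± 0.55. This was 6.77-fold lower than in WT, a difference of −2.76 ± 0.56 (adjusted p = 0.00506), in a comparison that called 10.1% of probe sets. In camta1/3 the arrays stood at 8.88, 7.18 and 7.22, with a mean of 7.76 ± 0.97, and in camta1/2 at 9.03, 7.17 and 7.76, with a mean of 7.99 ± 0.95. Both of these double mutants overlapped WT, each through its replicate 1. The differences from WT were −1.24 ± 0.56 in camta1/3 (95% interval −2.44 to −0.04; adjusted p = 0.394; 2.21% of probe sets called) and −1.01 ± 0.56 in camta1/2 (−2.21 to 0.19; adjusted p = 0.734; 0.163% called). Without 1 array the values ran from −1.80 to −0.83 in camta1/3 and from −1.53 to −0.60 in camta1/2, the lowest without that mutant's replicate 1. The highest came without WT replicate 1 for camta1/3 and without camta1/2 replicate 2 for camta1/2. Neither passed, and the intervals allow levels up to 5.41-fold lower in camta1/3 and 4.62-fold lower in camta1/2.

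Set against each double mutant, the triple mutant differs by the loss of the remaining CAMTA gene. Adding the loss of CAMTA3 to camta1/2 went with a COR15A level 7.52-fold lower, a difference of −2.91 ± 0.56 (adjusted p = 0.00244; 15.5% of probe sets called). Adding the loss of CAMTA2 to camta1/3 went with a 6.42-fold lower level, −2.68 ± 0.56 (adjusted p = 0.00702; 9.57% called). Adding the loss of CAMTA1 to camta2/3 gave −1.16 ± 0.56, which did not pass (95% interval −2.36 to 0.04; adjusted p = 0.430; 1.43% called), although all 3 camta1/2/3 arrays lay below all 3 camta2/3 arrays. The root marker PYK10 was higher in camta1/2/3 in the same comparisons, by 1.64 against camta1/2 (adjusted p = 0.00219), 1.26 against camta1/3 (adjusted p = 0.0186) and 1.39 against camta2/3 (adjusted p = 0.0387). The other 2 root markers and the 3 leaf markers did not pass there, and whether the PYK10 difference has a part in that of COR15A was not tested. The calls for camta2/3 against WT and for camta1/2/3 against camta1/2 and camta1/3 were made in the fit to all 21 arrays. With only the 6 arrays of each comparison in the fit, their adjusted p-values were 0.0557, 0.0577 and 0.104.

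Among the double mutants, COR15A did not pass in any of the 3 comparisons, although camta2/3 did not overlap the others. The difference of camta2/3 from camta1/2 was −1.75 ± 0.56 (adjusted p = 0.162, unadjusted p = 0.00716; 1.42% of probe sets called). It stood 1.52 ± 0.56 higher in camta1/3 than in camta2/3 (adjusted p = 0.496, unadjusted p = 0.0162; 0.106% called). Between camta1/3 and camta1/2 the difference was −0.23 ± 0.56 (adjusted p = 1.0, unadjusted p = 0.693; 0.00879% called). The warm order of COR15A was therefore camta1/2/3, camta2/3, camta1/3, camta1/2 and WT from low to high, and no 2 neighbours in this order differed past the threshold.

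COR15B was also lower in the warm triple mutant. It stood at 8.42, 7.0 and 8.20 in camta1/2/3, against 9.77, 8.81 and 9.03 in WT. The groups did not overlap, with the highest mutant array at 8.42 and the lowest WT array at 8.81. The means were 7.87 ± 0.76 and 9.20 ± 0.50, a 2.51-fold lower level in camta1/2/3, with a difference of −1.33 ± 0.45 (95% interval −2.29 to −0.37; limma adjusted p = 0.0442). This call was marginal. It was lost without WT replicate 1, 2 or 3 (adjusted p = 0.160, 0.0501 and 0.0770) and without camta1/2/3 replicate 2 or 3 (0.204 and 0.0567), and 1 fit of the 6 that leave out an array kept it. With only the arrays compared in the fit it was lost too (0.171). The call was kept with quantile normalization (0.0208), with a mean level above 4 (0.0129) and with the replicate number as a block (0.00346).

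COR15B averaged 8.70 ± 0.57 in camta2/3, 8.92 ± 0.58 in camta1/3 and 9.21 ± 0.65 in camta1/2 (SD, n = 3 each), and all 3 groups overlapped WT. The arrays stood at 9.28, 8.14 and 8.68 in camta2/3. They stood at 9.37, 8.26 and 9.13 in camta1/3 and at 9.88, 8.58 and 9.16 in camta1/2. Its differences from WT were −0.50, −0.28 and 0.00 ± 0.45, none of which passed (adjusted p = 0.628, 0.996 and 1.0). The interval for camta1/2, −0.96 to 0.97, still allows a change of up to 1.95-fold in either direction. From low to high the warm means of COR15B ran camta1/2/3, camta2/3, camta1/3, WT and camta1/2, and no neighbours in this order differed past the threshold.

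The triple mutant's COR15B level was also set against the double mutants. It lay below all camta1/2 arrays, with a difference of −1.33 ± 0.45 that missed the threshold (adjusted p = 0.0598). Against camta1/3 it differed by −1.05 ± 0.45 (adjusted p = 0.184). Same-numbered arrays of these 2 groups had residual correlations from 0.10 to 0.17. With the replicate number as a block that difference passed (adjusted p = 0.0303). Against camta2/3 the difference was −0.83 ± 0.45 (adjusted p = 0.506). Between double mutants COR15B differed by −0.51 (camta2/3 minus camta1/2), −0.29 (camta1/3 minus camta1/2) and 0.22 (camta1/3 minus camta2/3), each ± 0.45, with adjusted p-values of 0.806, 1.0 and 1.0.

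**Figure D2:**
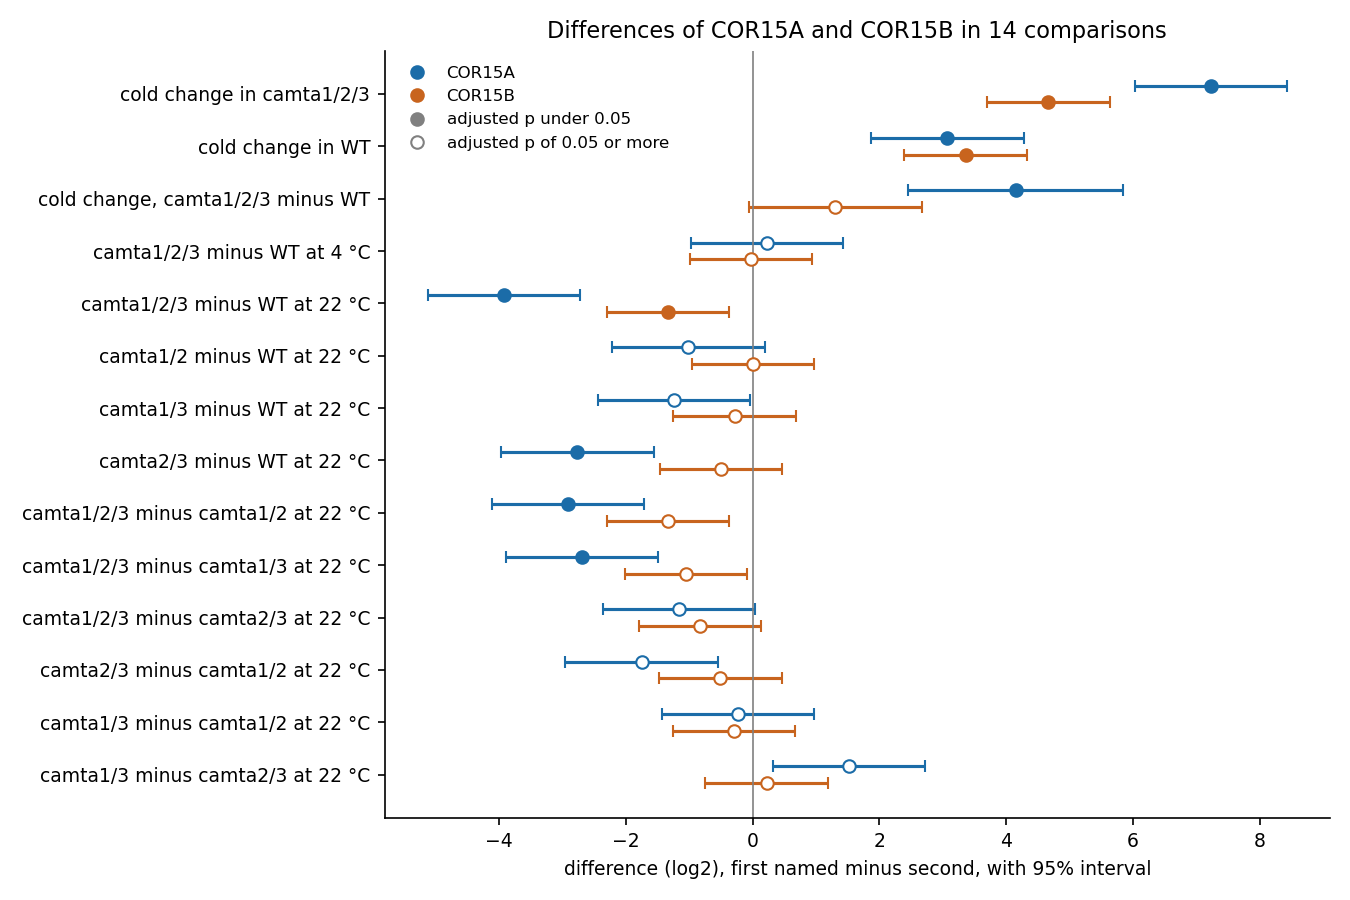
Differences of COR15A (blue) and COR15B (orange) in 14 comparisons (log2, first named group minus second) with 95% intervals from the fit to 21 arrays; filled points had an adjusted p under 0.05. COR15A is filled in 7 comparisons and COR15B in 3, and at 4 °C both intervals for camta1/2/3 minus WT include 0.

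The second question was which levels the genes reached in the cold. COR15A stood at 12.36, 12.05 and 12.49 in camta1/2/3 after 24 h at 4 °C, against 12.45, 12.56 and 11.20 in WT at 4 °C. The groups overlapped, and the lowest array was WT replicate 3. The means were 12.30 ± 0.23 in camta1/2/3 and 12.07 ± 0.76 in WT, and the difference of 0.23 ± 0.56 did not pass (95% interval −0.97 to 1.43; adjusted p = 0.894). Without WT replicate 3 it was −0.21, so its sign rested on that array.

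COR15B stood at 13.08, 12.44 and 12.09 in camta1/2/3 at 4 °C, against 12.68, 12.81 and 12.19 in WT at 4 °C. The arrays of both genotypes were interleaved, with a difference of −0.02 ± 0.45 (95% interval −0.99 to 0.94; adjusted p = 1.0). In this comparison 21.1% of all probe sets were called, 0 of these 2 genes among them (limma, and also 0 at an unadjusted p under 0.05). The intervals leave room for genotype differences of up to 2.69-fold in COR15A and 1.98-fold in COR15B.

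Both genes rose in the cold in both genotypes, and for COR15A the rise differed between them. COR15A rose 149-fold in camta1/2/3, by 7.22 ± 0.56 on the log2 scale (adjusted p = 3.81e-07; 22.2% of probe sets called), and 8.42-fold in WT, by 3.07 ± 0.56 (adjusted p = 0.000862; 23.1% called). Its rise was the fourth highest of all probe sets in camta1/2/3 and the 81st highest in WT. The difference between both rises was 4.15 ± 0.80 (95% interval 2.45 to 5.85; interaction, adjusted p = 0.0129), the second highest of all probe sets in a test that called 1.97% of them. By arithmetic it is the sum of a start 3.92 lower at 22 °C and an end 0.23 higher at 4 °C. The 149-fold rise and this difference thus rest on the low warm level in camta1/2/3, whose distance from background was not tested.

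COR15B rose 25.3-fold in camta1/2/3, by 4.66 ± 0.45 (adjusted p = 2.97e-06), and 10.2-fold in WT, by 3.36 ± 0.45 (adjusted p = 5.9e-05). Every 4 °C array lay above every 22 °C array of its genotype. The difference between the rises, 1.31 ± 0.64, did not pass (95% interval −0.06 to 2.67; adjusted p = 0.408, unadjusted p = 0.0589). The interval holds equal rises as well as a rise 6.36-fold steeper in the mutant. Comparisons within a temperature and across temperatures share arrays, so these values are not independent of each other.

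Whether both genes changed by the same amount was asked with the difference between them on each array, which sets no level of one gene against the other but only its shift between groups. COR15A minus COR15B was −3.87, −1.75 and −2.77 on the camta1/2/3 arrays at 22 °C, against 0.04, 0.04 and −0.70 on the WT arrays at 22 °C. The mutant arrays lay wholly below the WT arrays, with a shift of −2.59 (exact permutation test, two-sided p = 0.1, the smallest that 3 arrays against 3 can give). By these values COR15A was lower relative to COR15B on every mutant array. This exact test cannot pass 0.05 with 3 arrays against 3, and no model across arrays was fitted to this difference.

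The same difference averaged −2.46 ± 0.56 in camta2/3, −1.16 ± 0.71 in camta1/3 and −1.22 ± 0.32 in camta1/2 at 22 °C (SD, n = 3 each). At 4 °C it was −0.24 ± 0.58 in camta1/2/3 and −0.49 ± 0.43 in WT, overlapping each other (exact permutation p = 0.6). From 22 °C to 4 °C it moved by 2.56 in camta1/2/3 (exact permutation p = 0.1) and by −0.28 in WT (p = 0.5). In WT, then, both genes rose by amounts that differed by less than the spread between arrays.

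**Figure D3:**
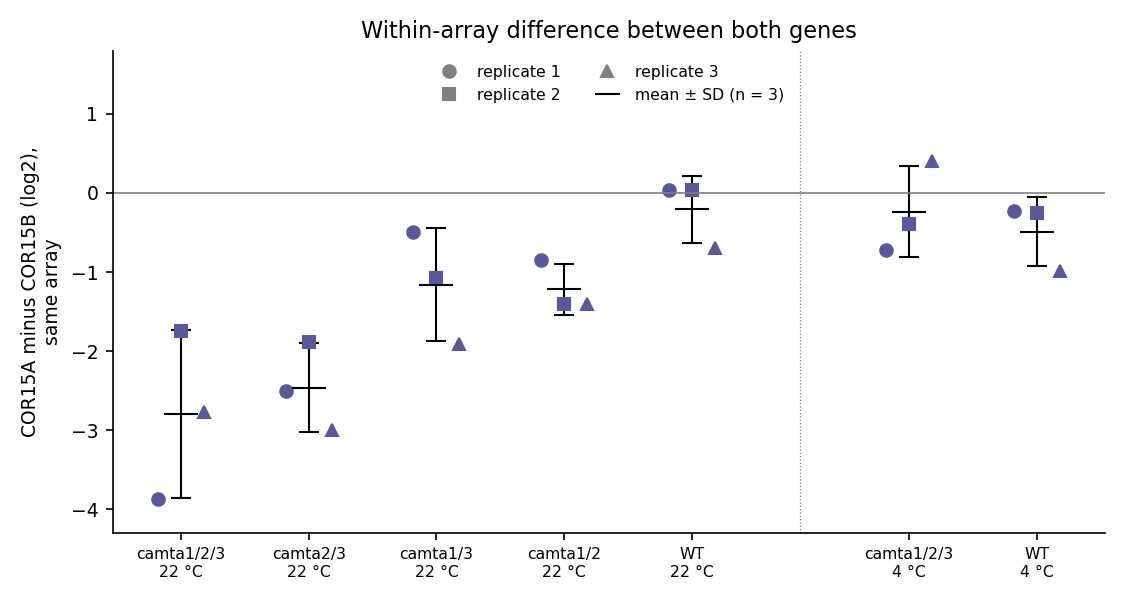
COR15A minus COR15B on the same array (log2) in the 7 groups, with the mean and SD of 3 arrays; marker shapes give the replicate number. The camta1/2/3 arrays at 22 °C lie between −3.87 and −1.75 and the camta1/2/3 arrays at 4 °C between −0.72 and 0.40, against −0.70 to 0.04 in WT at 22 °C and −0.99 to −0.23 in WT at 4 °C.

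Both genes varied strongly between replicates. The residual SD within groups was 0.71 for COR15A and 0.57 for COR15B, against a median of 0.20 over all probe sets tested. Of all probe sets, 99.5% had a residual SD at or below that of COR15A and 98.9% at or below that of COR15B. Among probe sets within 0.5 of its mean level the shares were 99.5% and 98.1%. Replicate 1 was the highest array of its group for COR15B in 6 of 7 groups and for COR15A in 4 of 7. In warm camta1/2/3 replicate 1 had the lowest COR15A and the highest COR15B of the group.

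A measure of RNA quality, the difference between the actin 3′ and 5′ control probe sets, moved with the warm genotypes. It was 2.90 ± 0.13 in camta1/2/3, 2.62 ± 0.16 in camta2/3, 2.48 ± 0.26 in camta1/3, 2.09 ± 0.05 in camta1/2 and 2.23 ± 0.21 in WT (log2, SD, n = 3 each). The same difference for the GAPDH control probe sets was smaller and ran in another order. It was 0.23 ± 0.04 in camta1/2/3, 0.37 ± 0.145 in camta2/3, −0.08 ± 0.155 in camta1/3, 0.06 ± 0.08 in camta1/2 and 0.05 ± 0.11 in WT. With the actin difference as a covariate COR15A differed by −4.04 between camta1/2/3 and WT at 22 °C (adjusted p = 0.000496). COR15B differed by −1.34, no longer past the threshold (adjusted p = 0.0868). The means of the 3 leaf markers ran from 11.67 to 12.40 on the camta1/2/3 arrays and from 12.35 to 12.62 on the WT arrays at 22 °C, and of the 3 root markers from 4.31 to 4.87 and from 4.02 to 4.28. At 4 °C the actin difference ran from 2.41 to 4.25 in camta1/2/3, with replicate 2 the highest, and from 1.57 to 2.71 in WT. With the covariate the cold rise of COR15A was 7.19 in camta1/2/3 and 3.11 in WT, and the difference between the rises 4.07 (adjusted p = 0.0237). All 3 leaf markers fell in the cold in both genotypes, their means running from 10.94 to 11.25 on the camta1/2/3 arrays and from 10.92 to 11.25 on the WT arrays at 4 °C. Of the root markers, PYK10 changed by −1.69 in camta1/2/3 and by −1.57 in WT between 4 °C and 22 °C (adjusted p = 0.00101 and 0.00167). The part of the marker levels in the COR15 differences was not tested.

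The pathway around both genes was described by lists of regulators, other COR genes and relatives. Of 30 regulators of the CBF pathway 2 were measured, and the CBF genes themselves had no probe set that could be named. STZ (AT1G27730), a zinc finger repressor induced by cold and other stresses, stood at 7.77 ± 0.43 in camta1/2/3 and 5.43 ± 0.84 in WT at 22 °C, a difference of 2.33 ± 0.42 (adjusted p = 0.000738). At 4 °C it stood at 9.39 ± 0.33 in camta1/2/3 and 7.73 ± 0.50 in WT (adjusted p = 0.00996). EIN3 (AT3G20770), a transcription factor of ethylene signalling that represses CBF genes, was higher in camta1/2/3 than in WT by 0.86 ± 0.18 at 22 °C (adjusted p = 0.00207) and by 1.04 ± 0.18 at 4 °C (adjusted p = 0.000558). STZ was also higher in camta2/3 than in WT at 22 °C, by 1.43 ± 0.42 (adjusted p = 0.0412). In the cold STZ rose by 1.62 in camta1/2/3 and by 2.30 in WT, and EIN3 passed in neither. Of all probe sets, 23.5% were called between camta1/2/3 and WT at 22 °C and 21.1% at 4 °C. Between camta2/3 and WT at 22 °C the share was 10.1%. For the cold change it was 22.2% in camta1/2/3 and 23.1% in WT. Whether STZ or EIN3 has a part in the COR15 levels was not tested.

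Of 6 CAMTA family genes the 3 that are not mutated here were measured. In WT 2 of them rose in the cold, AT1G67310 by 1.18 ± 0.20 (adjusted p = 0.000386) and AT3G16940 by 0.91 ± 0.19 (adjusted p = 0.00226). In camta1/2/3 the cold change passed for 0 of 3 (limma; 1 had an unadjusted p under 0.05), with 22.2% of all probe sets called there and 23.1% in WT. The difference between genotypes in the cold change passed for 0 of 3 (limma, 2 with an unadjusted p under 0.05), in a test that called 1.97% of all probe sets. It was −0.74 for AT1G67310 (adjusted p = 0.242) and −0.71 for AT3G16940 (adjusted p = 0.244). AT1G67310 was already higher in the warm mutant, at 7.57 ± 0.11 against 6.38 ± 0.06 in WT (adjusted p = 0.00039).

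Of 23 further COR genes and members of the CBF regulon 4 were measured, and the cold raised all 4 in camta1/2/3, where 22.2% of all probe sets were called, and in WT, where 23.1% were called. The dehydrin gene COR47 (AT1G20440) rose by 4.87 ± 0.44 in camta1/2/3 and by 4.47 ± 0.44 in WT, and the dehydrin gene LTI30 (AT3G50970) by 6.23 ± 0.75 and 5.86 ± 0.75. COR27 (AT5G42900), which encodes a cold- and light-regulated repressor linked to the circadian clock, rose by 4.52 ± 0.30 in camta1/2/3 and by 5.13 ± 0.30 in WT. AT4G33980 rose by 3.78 ± 0.31 and 4.39 ± 0.31. The median rise was 4.69 in camta1/2/3 and 4.80 in WT, while the median over all probe sets was 0.00 in each.

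In the warm, between camta1/2/3 and WT at 22 °C, 0 of these 4 COR genes passed (limma, with 0 at an unadjusted p under 0.05). Of all probe sets 23.5% were called there, and with 4 genes a count of 0 cannot be told apart from that share. The median difference was −0.30 against 0.00 over all probe sets. COR47 stood at 7.83 ± 0.61 in camta1/2/3 and 8.66 ± 0.65 in WT (adjusted p = 0.216). COR27 stood at 4.02 ± 0.11 and 4.02 ± 0.18 (adjusted p = 1.0). Whether COR15A differed from these genes in this respect was not tested.

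COR15A and COR15B belong to the late embryogenesis abundant (LEA) proteins, and 10 of 12 other genes of the LEA_4 family list were measured. Of the 10, 1 was called higher in WT at 4 °C: AT3G17520 stood at 3.91 ± 1.51, against 2.17 ± 0.00 at 22 °C (adjusted p = 0.0105). In camta1/2/3 at 4 °C it stayed at the lowest value of the table, 2.17 ± 0.00, and was called lower than in WT (adjusted p = 0.0118). Every group but WT at 4 °C stood at 2.17 ± 0.00. The SE of 0.45 in both tests came from a spread shared with these groups, so both adjusted p-values may be too low. In camta1/2/3 0 of 10 passed between 4 °C and 22 °C (limma, with 0 at an unadjusted p under 0.05). Of all probe sets 22.2% were called in camta1/2/3 and 23.1% in WT. The median cold change of the list was 0.00 in camta1/2/3 and 0.05 in WT. Other listed genes also stood near the lowest value in every group. The group means of AT3G15670 and AT1G72100 were 2.17 to 2.18, and those of AT4G36600 and AT2G18340 were 2.18 to 2.50. Genes at such levels could hardly be called, so these counts and medians do not tell whether the list responds to cold less than all probe sets. None of the 10 listed genes of chloroplast galactolipid synthesis and remodelling could be measured under its name.

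**Figure D4:**
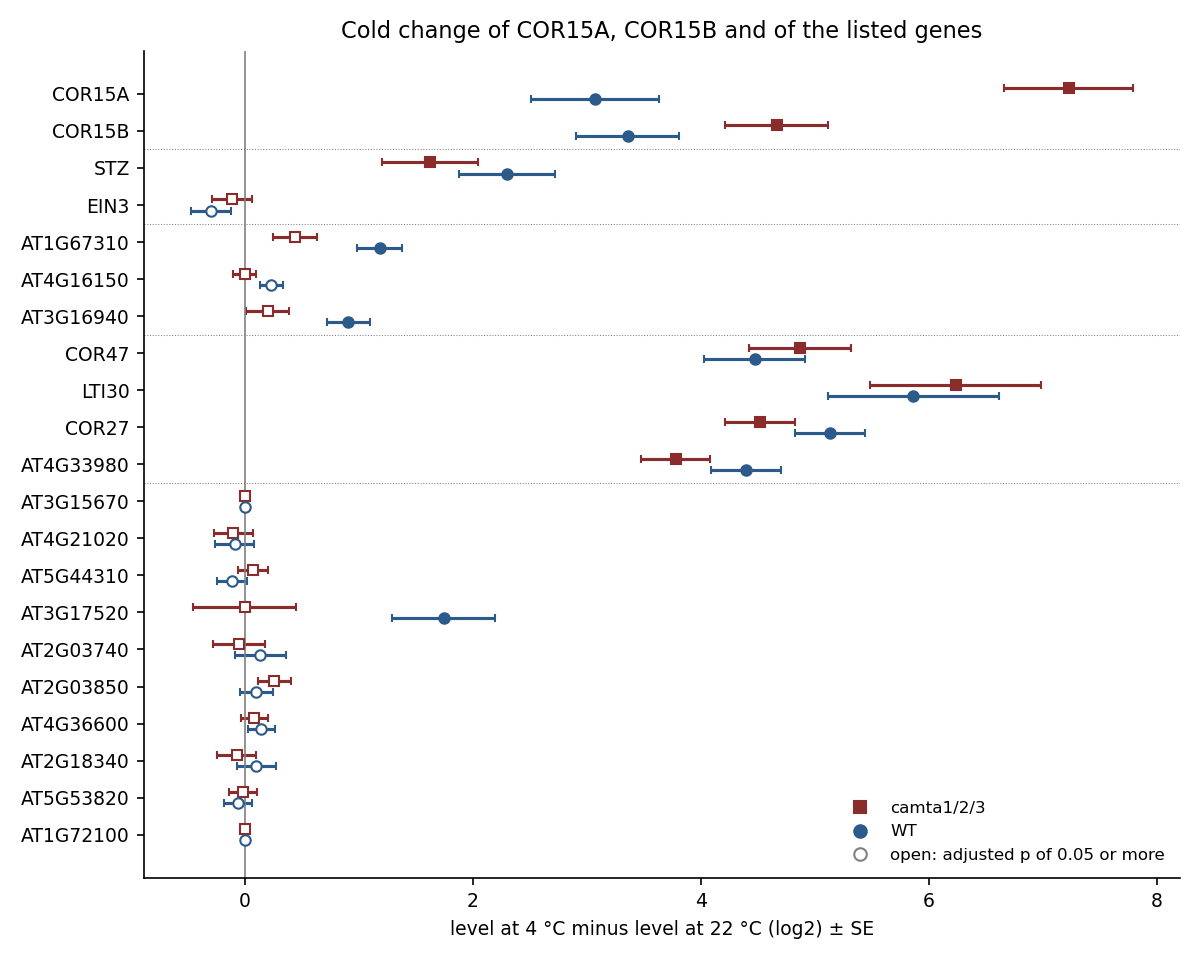
Cold change (level at 4 °C minus level at 22 °C, log2 ± SE) in camta1/2/3 (squares) and WT (circles) of COR15A, COR15B and, separated by dotted lines, the measured regulators of the CBF pathway, CAMTA family genes, other COR genes and LEA_4 family genes. COR15A is at 7.22 in camta1/2/3 and 3.07 in WT, while COR47, LTI30, COR27 and AT4G33980 lie between 3.78 and 6.23 in both genotypes.

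The genes on either side of the pair on chromosome 2 were looked up in the RefSeq annotation (TAIR10.1), where COR15B and COR15A are adjacent and the annotated spans of COR15B and AT2G42520 overlap. Of the 5 genes on each side, 5 of 10 were measured. In WT 1 of them fell in the cold, AT2G42490, by 0.80 (adjusted p = 0.0222). In camta1/2/3 1 rose, AT2G42520, which stood at 7.83 at 4 °C and 6.83 at 22 °C (adjusted p = 0.000106), and it was higher in camta1/2/3 than in WT at 4 °C by 0.53 (adjusted p = 0.0138). These counts of 1 of 5 are near the shares of all probe sets called in the cold, 22.2% in camta1/2/3 and 23.1% in WT. Between camta1/2/3 and WT at 22 °C 0 of 5 passed (limma, with 0 at an unadjusted p under 0.05). Of all probe sets 23.5% were called there, and with 5 genes a count of 0 cannot be told apart from that share. Whether the probe sets of COR15A, COR15B and AT2G42520 take signal from each other's transcripts was not tested, since the probe sequences were not used here.

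Likeness to each gene was measured by Pearson's r with the other 13285 genes represented by 1 probe set and a name, as a description without a test. Over all 21 arrays, which fall apart by temperature, COR15B was the fourth nearest gene to COR15A (r = 0.939). Nearer were AT5G16010 (r = 0.965), AT5G62360 (r = 0.942) and the flavonoid 3-O-glucosyltransferase gene UGT78D2 (AT5G17050; r = 0.939), and AT2G23120 followed (r = 0.937). All 5 were called higher in the cold in camta1/2/3 (22.2% of all probe sets were called) and in WT (23.1%), and lower in camta1/2/3 than in WT at 22 °C (23.5%). Since the genes were chosen for following COR15A over these same arrays, these counts follow largely from the choice. AT5G62360, for example, stood at 4.63 in camta1/2/3 and 7.42 in WT at 22 °C, and at 9.26 and 10.52 at 4 °C. At 4 °C 3 of the 5, AT5G16010, AT5G62360 and UGT78D2, were also lower in camta1/2/3 (21.1% of all probe sets were called).

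The genes nearest to COR15B over the 21 arrays were AT4G30650 (r = 0.991), COR47 (r = 0.975), AT1G73480 (r = 0.963), AT2G23120 (r = 0.960) and AT1G53035 (r = 0.959), and COR15A was the 29th. All 5 were called higher in the cold in camta1/2/3 (22.2% of all probe sets were called) and in WT (23.1%). This again follows largely from how they were chosen. Of these, 2 were lower in camta1/2/3 than in WT at 22 °C, AT2G23120 by 0.92 (adjusted p = 0.0244) and AT1G73480 by 0.86 (adjusted p = 0.0330). Of all probe sets 23.5% were called there. AT4G30650 stood at 7.07 in camta1/2/3 and 8.05 in WT at 22 °C (adjusted p = 0.0598).

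Over the 15 arrays at 22 °C alone other genes came nearest. COR15B was the 737th nearest gene to COR15A (r = 0.755). The 5 nearest were AT5G43745 (r = 0.970), AT3G06770 (r = 0.960), AT1G75900 (r = 0.959), AT2G43550 (r = 0.956) and AT3G62820 (r = 0.949). All 5 were lower in camta1/2/3 than in WT at 22 °C (23.5% of all probe sets were called). This follows largely from their choice by likeness to COR15A over the same warm arrays. In WT 0 of these 5 were called higher in the cold and 3 were called lower (limma, all 5 with an unadjusted p under 0.05). Of all probe sets 23.1% were called there in either direction. AT1G75900 stood at 8.25 in camta1/2/3 at 4 °C and 6.98 at 22 °C (adjusted p = 0.000387), and at 8.91 in WT at 4 °C and 8.33 at 22 °C (adjusted p = 0.0571). Of the 3 called lower in WT, AT3G06770 fell by 2.61 (adjusted p = 5.27e-06). At 4 °C 4 of the 5 were lower in camta1/2/3 than in WT (21.1% of all probe sets were called), where COR15A did not pass. AT2G43550 stood at 6.14 in camta1/2/3 and 8.86 in WT at 4 °C, and at 6.30 and 9.81 at 22 °C.

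For COR15B the 5 nearest genes on the warm arrays were AT1G13930 (r = 0.947), AT4G30650 (r = 0.940), AT2G25250 (r = 0.936), LHCB4.2 (AT3G08940; r = 0.932), which encodes a light-harvesting protein, and AT5G02160 (r = 0.931). COR15A was the 313th. LHCB4.2, a leaf marker, stood at 11.96 in camta1/2/3 and 12.45 in WT at 22 °C (adjusted p = 0.0468) and fell in the cold by 1.58 in camta1/2/3 and by 2.17 in WT. AT4G30650 passed as higher in the cold in both genotypes. AT1G13930 was higher by 1.20 in camta1/2/3 (adjusted p = 0.00184) and by 0.59 in WT (adjusted p = 0.0939). These correlations rest on arrays that share genotype and replicate number, and say nothing of shared control.

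**Figure D5:**
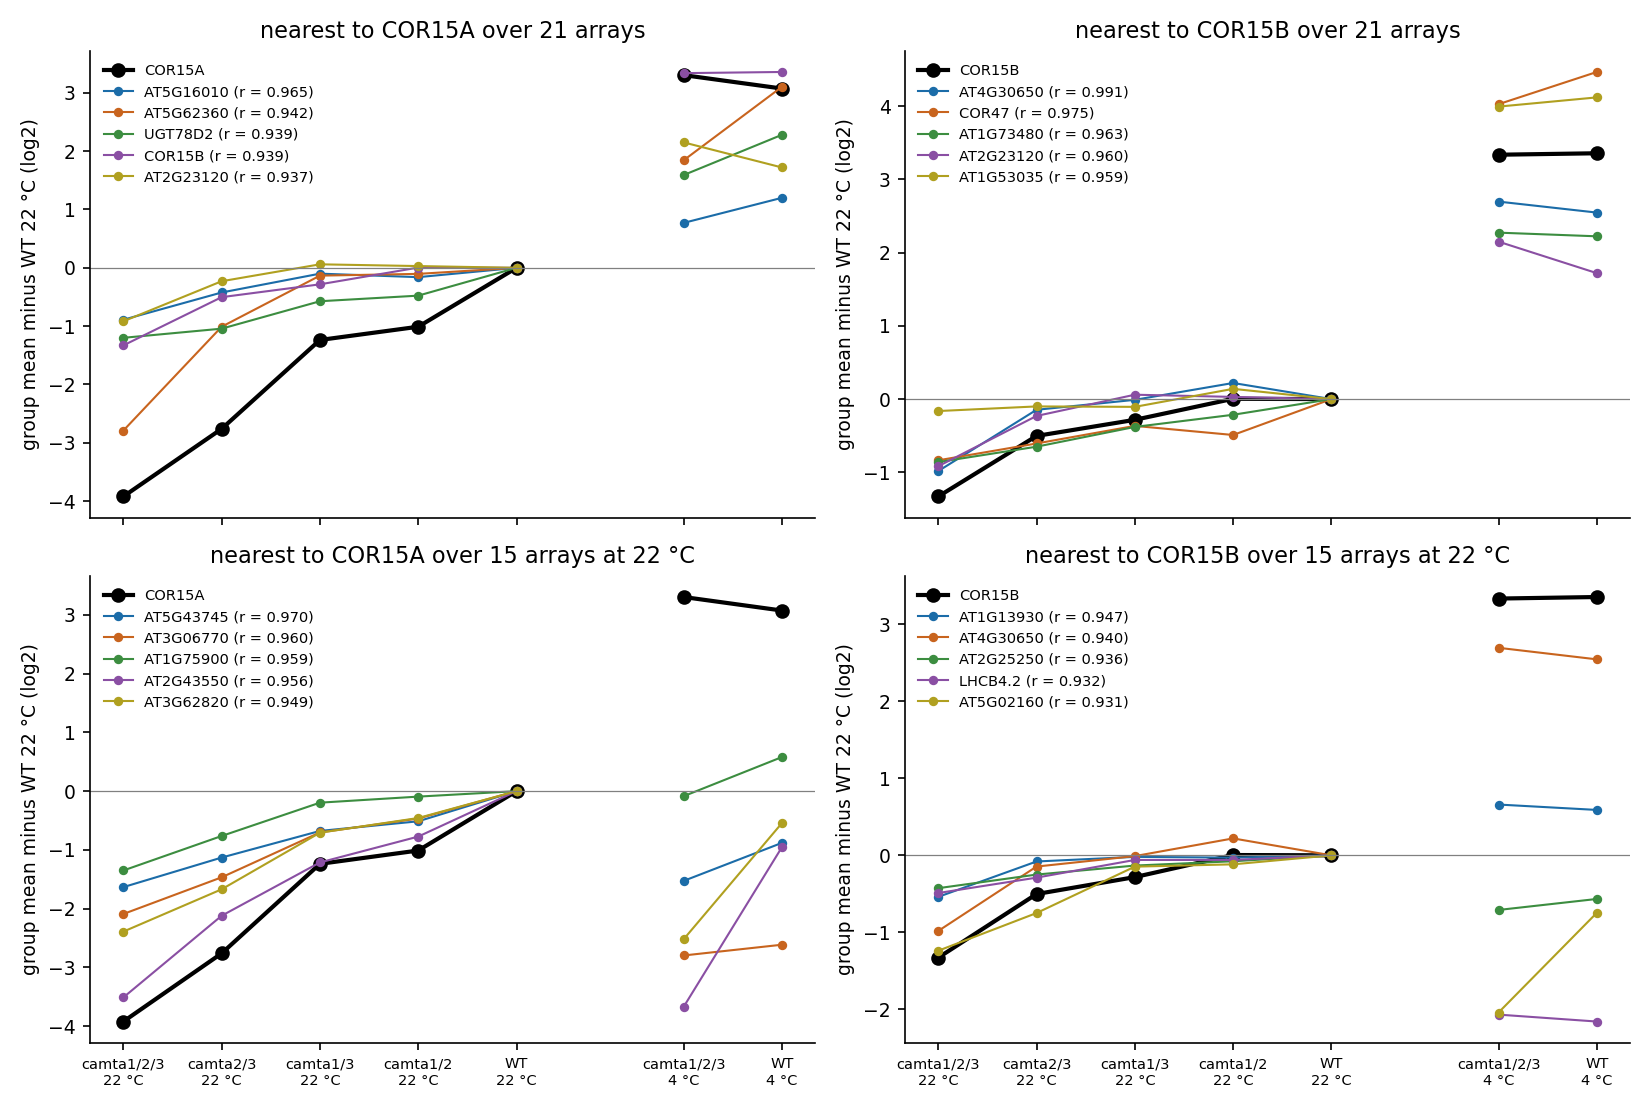
Group means minus the WT mean at 22 °C (log2) of COR15A (left, black) and COR15B (right, black) and of the 5 genes with the highest Pearson's r to each over 21 arrays (top) or over the 15 arrays at 22 °C (bottom); lines join groups of one temperature only. The genes nearest to COR15A on the warm arrays fall with it in camta1/2/3, but at 4 °C the highest of them lies at 0.58, where COR15A lies at 3.07 in WT.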

How the data were processed

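Transcript levels were measured on 21 one-colour arrays. The authors deposited 1 table of log2 values of 22810 probe sets; GCRMA and limma are named in the submitters' processing notes, with versions not given in the sources used here. These log2 values were used as deposited. The 64 control probe sets were dropped; the other 22746 all entered the tests, low ones included, without detection calls. Genes were named from the platform annotation (13513 probe sets with 1 gene, 503 with several, 8730 not listed), and 13436 were matched to RefSeq. No 2 arrays held the same values. The precision is limited by 3 arrays per group.

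One mean per group was estimated with limma 3.58.1 in R 4.3.3 (lmFit, eBayes, with 14 residual and 0.954 prior degrees of freedom). Tests were two-sided and adjusted over all probe sets of a comparison. The fit was also run on simulated data with residuals shuffled over arrays, which cannot test the effect of a shared replicate number. Named are both genes, up to 4 called genes per list and comparison, and the 5 nearest genes per measure of likeness; neighbouring genes were added after the data were seen. The genes and lists were chosen with earlier results of these data known. Same-numbered arrays had residual correlations from −0.16 to 0.37, all 3 above 0.1 in 3 of 21 pairs of groups (WT with camta2/3, and camta1/3 with camta2/3 and camta1/2/3, at 22 °C).

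As alternatives, arrays were quantile-normalized or centred on their medians; others were a mean level above 4, a trended variance, the replicate block, the actin difference as a covariate, only the arrays compared, and each array left out.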

Additional observations from a re-analysis of the deposited data

Results flagged for a closer look

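For COR15A, all 3 arrays at 4 °C lay above all 3 at 22 °C in camta1/2/3 and in WT alike. The rise of COR15A in the cold differed between the genotypes by the interaction test. It was 4.15 ± 0.80 (log2, SE) larger in camta1/2/3 than in WT (limma adjusted p = 0.0129). Leaving out each of the 12 arrays in turn gave 3.72 to 4.48, with adjusted p-values of 0.0142 to 0.0379. The share of the warm level and of the cold level in it is given with the result, and no cause was tested.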

How the results depend on the processing

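Of 28 tested differences, 22 kept their call under every alternative run. The main fit called 7 of 14 for COR15A and 3 of 14 for COR15B, so the 22 include differences that were never called. The fit on the compared arrays alone left the values as they were but ended 4 calls: COR15A in camta2/3 against WT (−2.76, adjusted p = 0.0557), in camta1/2/3 against camta1/2 (−2.91, 0.0577) and against camta1/3 (−2.68, 0.104), and COR15B in camta1/2/3 against WT (−1.33, 0.171), all at 22 °C; this fit has fewer samples. The last call also ended with the actin covariate (−1.34, adjusted p = 0.0868) and in 5 of 6 fits without 1 array, whose values ran from −1.60 to −0.89. COR15B in camta1/2/3 against camta1/2 was −1.33 and gained a call with quantile normalization (adjusted p = 0.0245), with a mean level above 4 (0.0185), with the replicate block (0.00563) and in 1 fit without 1 array, without camta1/2 replicate 2 (0.0370), in a range from −1.65 to −0.90. Against camta1/3 it was −1.05 and gained a call with the replicate block (0.0303). The block changed no other call. All 3 residual correlations of same-numbered arrays were above 0.1 in 3 pairs of groups, and 16 of 21 arrays had their closest residuals with an array of their own number. The main fit had no term for the replicate number. What same-numbered arrays had in common is not stated in the labels and was not tested. Neither scaling moved the median of all probe sets by more than 0.07. The cause of these changes was not tested otherwise. No detection calls were used, so how far low levels, such as that of COR15A in warm camta1/2/3, lay above background was not tested.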
